A study of Mus musculus with 12 samples.

Results

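Beta-catenin target and feedback genes were examined in mouse colonic myofibroblasts with and without TNFR1, the receptor through which tumor necrosis factor activates NF-kB. The 10 genes, matched by symbol among the 24411 rows of the deposited table, were Axin2, Lef1, Tcf7, Nkd1, Nkd2, Znrf3, Apcdd1, Ccnd1, Myc and Tnfrsf19. They were chosen as a readout of canonical Wnt signalling inside the mesenchymal cells. All 10 had a row, and 8 had enough reads to enter the test, which covered 12146 genes. Axin2 and Tnfrsf19 were too low for it and are given as counts.

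RNA sequencing was done on 6 libraries of TNFR1-/- cells and 6 libraries of control (TNFR1-/+) cells, which carry 1 intact and 1 disrupted allele. The cells were primary colonic myofibroblasts from the distal colon of 16-week-old C57BL/6 mice, expanded to passage 6 to 8 and harvested at day 5 in Matrigel without further treatment, per the labels. The libraries are called knockout 1 to 6 and control 1 to 6. The labels do not say which libraries came from separate mice or cultures, so the p-values speak only to the variation among these libraries, part of which may be technical.

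In canonical Wnt signalling a Wnt ligand bound to Frizzled and LRP receptors stops the destruction of beta-catenin, which then enters the nucleus and turns on genes together with TCF and LEF proteins. Many of these genes feed back on the pathway. Axin2 rebuilds the destruction complex, Nkd1 and Nkd2 act on the Dishevelled adaptor, Znrf3 removes Frizzled from the cell surface and Apcdd1 inhibits at the membrane, while Ccnd1 and Myc drive cell division. In the colon, mesenchymal cells are best known as a source of Wnt ligands and inhibitors for the epithelial stem cells, and they also receive these signals themselves.

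Total counts ran from 6543013 to 9937008 in knockout libraries and from 11890729 to 16458689 in control libraries, so low genes were read less deeply in the knockout. Tnfrsf1a, which encodes TNFR1, was at 40.6 to 46.1 CPM (counts scaled to a common library size) in knockout libraries, against 54.9 to 81.3 CPM in control libraries. A gene-level count cannot tell which part of the transcript remained. Knockout 5 and 6 stood apart from knockout 1 to 4 (rank correlation across genes 0.926 to 0.927, against 0.989 to 0.997 among knockout 1 to 4), and control 6 stood apart from control 1 to 5 (0.952 to 0.954, against 0.996 to 0.998). Control 6 was closer to knockout 1 to 4, at 0.968 to 0.976. The pre-ribosomal RNA row Rn45s took 7.01% and 8.25% of counts in knockout 5 and 6 and 1.63% to 2.1% in knockout 1 to 4, against 0.871% to 1.19% in control 1 to 5 and 0.351% in control 6. Results are therefore also given without the libraries that stood apart. A call here and throughout is a Benjamini-Hochberg adjusted p under 0.05 over all genes in the edgeR quasi-likelihood test with genotype as the only term, which 43% of the 12146 genes met, 21.4% higher and 21.6% lower in the knockout. Of 12 mesenchymal markers, all tested, 5 were called higher and 2 lower, and the list was uneven among libraries. Its summed level was 13649 to 13759 CPM in knockout 5 and 6 and 33970 to 34578 CPM in knockout 1 to 4, against 25019 to 26177 CPM in control 1 to 5 and 35955 CPM in control 6. Vim was at 3626 to 4043 CPM in knockout and 1888 to 3095 CPM in control libraries, while Col1a1 was at 1993 to 2102 CPM in knockout 5 and 6 and 10467 to 11420 CPM in knockout 1 to 4, against 8073 to 13267 CPM in control libraries. The smooth muscle gene Myh11 was at 17.8 to 19.8 CPM in knockout 5 and 6 and 200.4 to 286.8 CPM in knockout 1 to 4, against 22.9 to 34.5 CPM in control 1 to 5 and 120.3 CPM in control 6. The 2 called lower, Col3a1 and Pdgfra, were lower in every knockout library. Col3a1 was at 338 to 373 CPM in knockout 5 and 6 and 1434 to 1537 CPM in knockout 1 to 4, against 3251 to 3390 CPM in control libraries. Pdgfra was at 85.0 to 125.6 CPM in knockout and 175.5 to 254.1 CPM in control libraries. At the same time no library had more than 1 count of the epithelial genes Epcam or Cdh1. The summed level of 10 epithelial markers was 14.9 to 23.3 CPM in knockout libraries. It was 7.49 to 9.38 CPM in control 1 to 5 and 20.2 CPM in control 6. Keratin genes made up most of it. Krt20 was at 4.14 to 5.96 CPM in knockout libraries, 0.585 to 0.979 CPM in control 1 to 5 and 7.38 CPM in control 6. Krt18 was at 3.31 to 3.53 CPM in knockout 5 and 6. It was at 0.128 to 0.316 CPM in knockout 1 to 4 and 0 to 1.14 CPM in control libraries. Neither of the 2 tested, Krt19 and Krt20, passed. The summed level of 7 macrophage markers was 36.9 to 53.5 CPM in knockout and 71.8 to 121.6 CPM in control libraries. Most of it was Lyz2, at 27.3 to 36.9 CPM in knockout and 49.2 to 93.2 CPM in control libraries. All 7 were tested, and Ptprc, Csf1r and Cd14 did not pass. The other 4, Itgam, Adgre1, Cd68 and Lyz2, were called lower (57.1%, beside 21.6% of all genes), and none was called higher. Endothelial markers (5.28 to 9.31 CPM in knockout, 6.36 to 10.6 CPM in control libraries) and glial and neuronal markers (2.48 to 4.50 CPM in knockout, 6.31 to 8.73 CPM in control libraries) were low, and 1 of 2 and 2 of 3 tested genes were called lower, too few to set beside that share. The part of other cell types in the results was not tested.

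Promoter sequences of members were taken from RefSeq (GRCm38.p6). The 250 bases upstream of each listed start were searched for CTTTGA, the core of the TCF/LEF motif, on both strands (TCAAAG on the other), and 13.8% of 32851 mouse promoters of this length held it. Of the 10 members 6 were matched, with 11 listed starts, while Znrf3, Apcdd1, Ccnd1 and Myc were not matched. A match was present at 2 of the 11 starts, 1 of Lef1 and 1 of Tnfrsf19, and the match of Tnfrsf19 also fits the longer CTTTGAT, found in 3.21% of promoters. The Nkd1 window, shown because Nkd1 was the one member called lower, held no match, which says only that these letters are not in it. The Lef1 window lies at the most downstream of its 4 starts. The table of counts does not separate starts of 1 gene. Capitals mark CTTTGA or TCAAAG.
Lef1 upstream of its most downstream start, GRCm38.p6 chr3:131156044-131156293, plus strand: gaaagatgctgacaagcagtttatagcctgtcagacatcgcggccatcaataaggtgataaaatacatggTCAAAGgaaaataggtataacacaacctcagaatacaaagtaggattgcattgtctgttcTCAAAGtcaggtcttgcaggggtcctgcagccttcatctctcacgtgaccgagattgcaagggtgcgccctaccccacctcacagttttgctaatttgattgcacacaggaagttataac
Tnfrsf19 upstream of its second listed start, GRCm38.p6 chr14:61037988-61038237, minus strand: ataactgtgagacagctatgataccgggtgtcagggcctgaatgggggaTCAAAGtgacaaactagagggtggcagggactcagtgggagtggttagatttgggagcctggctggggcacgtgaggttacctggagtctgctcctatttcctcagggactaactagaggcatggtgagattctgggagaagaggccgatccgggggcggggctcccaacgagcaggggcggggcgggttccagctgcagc
Nkd1 upstream of its start, GRCm38.p6 chr8:88527383-88527632, plus strand: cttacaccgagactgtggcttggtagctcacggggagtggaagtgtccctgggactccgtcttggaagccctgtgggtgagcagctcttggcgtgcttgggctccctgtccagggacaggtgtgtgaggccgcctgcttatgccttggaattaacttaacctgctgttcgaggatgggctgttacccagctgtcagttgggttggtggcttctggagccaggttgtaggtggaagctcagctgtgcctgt

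The members did not move as 1 group between knockout and control cells. Apcdd1, Ccnd1 and Lef1 were called higher in the knockout, Nkd1 was called lower, and Tcf7, Nkd2, Znrf3 and Myc did not pass the test. With 43% of all genes called, 4 calls among 8 tested members is near the background. These calls, and those of every other gene named here, treat the libraries as replicates: with counts summed into the 4 sets that stood apart (knockout 1 to 4, knockout 5 and 6, control 1 to 5, control 6) no gene was called in edgeR (smallest adjusted p = 0.0716), and 1047 of 13132 genes but 0 members had an unadjusted p under 0.05. The members' median log2 difference (knockout minus control) was 0.57, beside 0.02 over all genes tested, but it was -0.14 (beside -0.01) without knockout 5 and 6 and 0.03 (beside -0.01) without knockout 5, knockout 6 and control 6. Only Apcdd1 kept its knockout and control libraries apart without overlap, and 23% of all tested genes did so. In bulk cultures a change in the share of cells that express a gene and a change in RNA per cell cannot be told apart.

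**Figure D1:**
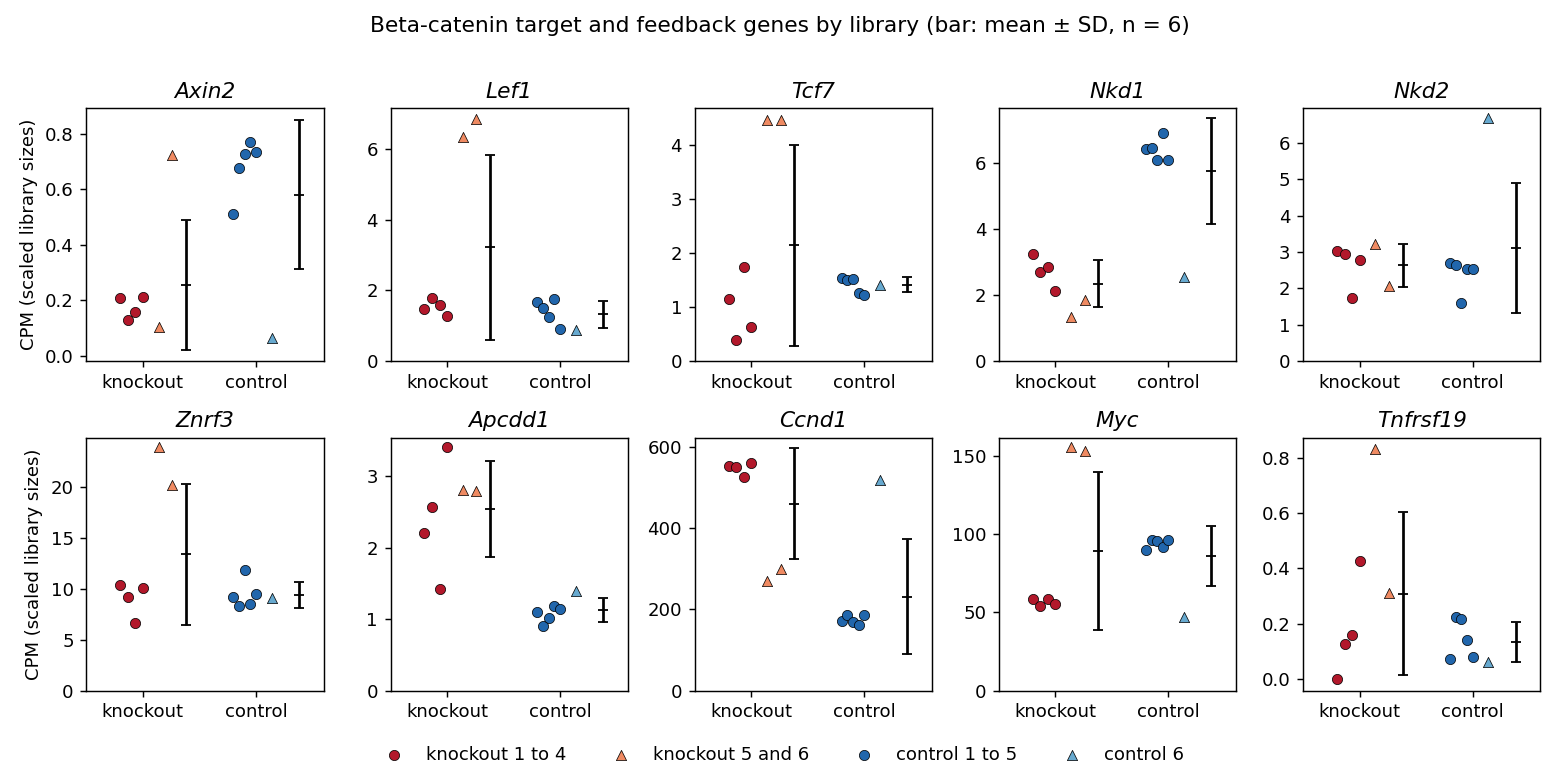
CPM on scaled library sizes (vertical axis, a linear scale for each gene) of the 10 members in each library, knockout at the left and control at the right, with the mean and SD of 6 libraries as bars. Apcdd1 is the only one of the 8 tested genes without overlap between the groups, while the triangles of knockout 5 and 6 lie away from the circles of knockout 1 to 4 for Lef1, Tcf7, Nkd1, Znrf3, Ccnd1 and Myc, and the triangle of control 6 away from the circles of control 1 to 5 for Nkd1, Nkd2, Ccnd1 and Myc.

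Among the feedback inhibitors, Apcdd1, a membrane protein that binds Wnt and LRP, was higher in every knockout library. It had 2.20, 2.57, 1.42, 3.41, 2.80 and 2.79 CPM in knockout 1 to 6, against 1.10, 0.904, 1.02, 1.19, 1.14 and 1.40 CPM in control 1 to 6. Knockout 3 and control 6 nearly touched, and no values crossed. The means were 2.53 ± 0.671 CPM in the knockout and 1.12 ± 0.168 CPM in the control (SD, n = 6 each), a 2.25-fold rise (log2 difference 1.17, SE 0.20; edgeR adjusted p = 0.000698). These levels rest on 9 to 32 counts per knockout library and 12 to 22 per control library. Without knockout 5 and 6 the log2 difference was 1.11 (adjusted p = 0.00261), and it was 1.2 (adjusted p = 0.000333) when control 6 was left out as well.

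Nkd1, a cytoplasmic inhibitor that binds Dishevelled, fell in the knockout. It had 3.24, 2.69, 2.85, 2.13, 1.35 and 1.86 CPM in knockout 1 to 6, against 6.43, 6.48, 6.09, 6.93, 6.12 and 2.54 CPM in control 1 to 6. Control 6 lay inside the knockout range, and the other 5 controls lay far above it. The means were 2.35 ± 0.700 CPM in the knockout and 5.76 ± 1.61 CPM in the control (SD, n = 6 each), with a log2 difference of -1.30 (SE 0.26; edgeR adjusted p = 0.00193). Summed over sets, knockout 1 to 4 were at 0.424 of control 1 to 5 but at 1.07 of control 6, and knockout 5 and 6 were at 0.25 of control 1 to 5 and at 0.631 of control 6. The call was kept without knockout 5 and 6 (log2 difference -1.07, adjusted p = 0.00733) and without control 6 (-1.45, adjusted p = 5.95e-05).

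Nkd2, the paralog of Nkd1, did not pass the test. It had 3.03, 2.95, 1.74, 2.77, 3.22 and 2.07 CPM in knockout 1 to 6, against 2.70, 2.64, 1.6, 2.52, 2.53 and 6.68 CPM in control 1 to 6. Control 6 was above all other libraries, and the rest overlapped. The log2 difference was -0.24 (SE 0.31; edgeR adjusted p = 0.563) and turned to 0.15 (adjusted p = 0.56) without control 6.

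Znrf3, a ubiquitin ligase that takes Frizzled off the cell surface, was highest in knockout 5 and 6. It had 10.4, 9.24, 6.64, 10.1, 24.0 and 20.2 CPM in knockout 1 to 6, against 9.21, 8.36, 11.8, 8.54, 9.47 and 9.09 CPM in control 1 to 6. Knockout 1 to 4 overlapped the controls. The fitted log2 difference of 0.52 (SE 0.28) did not pass (edgeR adjusted p = 0.146) and was -0.04 (adjusted p = 0.837) without knockout 5 and 6.

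Axin2, widely used as a general reporter of beta-catenin activity, was close to the detection limit. It had 2, 1, 1, 2, 1 and 7 counts in knockout 1 to 6, against 7, 9, 10, 11, 9 and 1 in control 1 to 6. Knockout 6 and control 6 lay with the libraries of the opposite genotype. The difference of mean log2 CPM was -0.80 and did not pass an exact two-sided permutation test over the 12 libraries (p = 0.0736, where the smallest possible p is 0.00216). The summed level was 0.267 CPM in the knockout and 0.566 CPM in the control, a ratio of 0.472 with a 95% counting interval of 0.24 to 0.872 that does not include the spread between libraries. Control 6 and knockout 6 decided this value: without control 6 the exact permutation p was 0.00866 (difference -1.09), and without knockout 6 it was 0.0216 (difference -1.04). With no filter on low counts, the edgeR log2 difference of Axin2 was -1.10 (adjusted p = 0.155).

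The transcription factor genes Lef1 and Tcf7, which encode DNA-binding partners of beta-catenin and are also targets of it, shared a pattern with Znrf3 in which knockout 5 and 6 stood above the rest. Lef1 had 1.46, 1.80, 1.58, 1.28, 6.33 and 6.83 CPM in knockout 1 to 6, against 1.68, 1.51, 1.23, 1.75, 0.898 and 0.890 CPM in control 1 to 6. Knockout 1 to 4 overlapped control 1 to 4. The mean was 3.21 ± 2.62 CPM in the knockout and 1.33 ± 0.379 CPM in the control (SD, n = 6 each), a log2 difference of 1.29 (SE 0.46; edgeR adjusted p = 0.0372). This call rested on knockout 5 and 6, since without both the log2 difference was 0.20 (adjusted p = 0.535). It was also lost without knockout 5 or knockout 6 alone (adjusted p = 0.0955 and 0.1) and without any one of control 1, 2, 3, 5 and 6 (0.0518 to 0.0771), and limma-voom did not make it (adjusted p = 0.0939).

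Tcf7 had 1.15, 0.385, 1.74, 0.639, 4.46 and 4.45 CPM in knockout 1 to 6, against 1.54, 1.51, 1.52, 1.26, 1.22 and 1.40 CPM in control 1 to 6. Knockout 1, 2 and 4 lay below all controls and knockout 3, 5 and 6 above all of them. For knockout 1 to 4 these places rest on few reads, at 11, 3, 11 and 6 counts, against 15 to 22 per control library. Knockout 1 and 3 had the same count and differ in CPM only through library size. The log2 difference was 0.62 (SE 0.48; edgeR adjusted p = 0.315), and it was -0.57 (adjusted p = 0.152) without knockout 5 and 6. Lef1 and Tcf7 are also genes of T cells. Of 10 T cell markers, Cd3e, Cd3g and Cd2 were at 0 in all libraries, Cd3d and Cd8a had at most 1 count, and the summed level of the list was 1.05 to 3.01 CPM in knockout libraries and 3.56 to 8.77 CPM in control libraries. Of these markers 2 were tested and 1 was lower, and most of the summed level in control 1 to 5 was Lck (up to 98 counts).

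The other 2 genes of this transcription factor family, Tcf7l1 and Tcf7l2, stood at higher levels per length. In CPM per kilobase of merged exon (GENCODE M21, which may differ from the annotation used for counting), Tcf7l1 averaged 6.73 in the knockout and 6.76 in the control, and Tcf7l2 averaged 5.52 in the knockout and 3.74 in the control. Lef1 averaged 0.916 in the knockout and 0.378 in the control, and Tcf7 averaged 0.814 in the knockout and 0.536 in the control. The highest library for Lef1, at 1.95 CPM per kilobase, was below the lowest for Tcf7l2, at 2.95. Tcf7l2 was at 15.7 to 31.8 CPM in knockout libraries, above the 13.1 to 13.8 CPM of control 1 to 5, and control 6 was at 31.5 CPM. Over all 12 libraries, neither Tcf7l1 (log2 difference -0.01, SE 0.12, edgeR adjusted p = 0.963) nor Tcf7l2 (0.56, SE 0.25, edgeR adjusted p = 0.0914) passed the test between knockout and control.

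**Figure D2:**
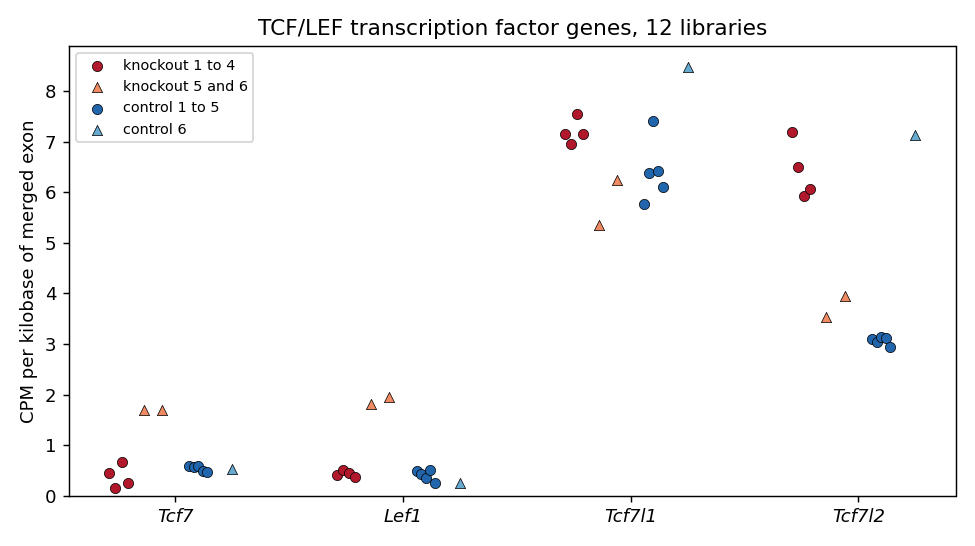
Level of the 4 TCF/LEF family genes in CPM per kilobase of merged exon (vertical axis) in each of the 12 libraries, knockout sets left of control sets within each gene. Lef1 and Tcf7 stay at or below 1.95 in every library and are highest in knockout 5 and 6, while Tcf7l1 and Tcf7l2 lie between 2.95 and 8.48.

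The growth genes Ccnd1 and Myc, which encode cyclin D1 and the MYC transcription factor, were the most abundant members. Against control 1 to 5, knockout 1 to 4 were higher for Ccnd1 but at 0.602 for Myc. Knockout 5 and 6 were higher than control 1 to 5 for both, at 1.63 times for Ccnd1 and 1.65 times for Myc. Ccnd1 had 554, 551, 527, 560.5, 269 and 299.6 CPM in knockout 1 to 6, against 171, 185, 168, 161, 187 and 518 CPM in control 1 to 6. Control 6 lay near knockout 1 to 4, and knockout 5 and 6 lay between the 2 levels. The means were 460.2 ± 137 CPM in the knockout and 232 ± 141 CPM in the control (SD, n = 6 each), a 1.99-fold rise (log2 difference 0.99, SE 0.32; edgeR adjusted p = 0.0239). Without any one of control 1 to 5 the adjusted p was 0.0535 to 0.0548, and without control 6 it was 0.000141 with a log2 difference of 1.40. Knockout 5 and 6 were at 0.549 of control 6, and knockout 1 to 4 were at 3.16 times control 1 to 5.

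Myc had 58.5, 53.8, 58.4, 55.4, 155.5 and 153 CPM in knockout 1 to 6, against 90.1, 96.2, 95.3, 91.6, 96.1 and 46.7 CPM in control 1 to 6. Control 6 was below all other libraries, knockout 1 to 4 were below control 1 to 5, and knockout 5 and 6 were above every other library. Over all 12 libraries these opposite differences gave a log2 difference of 0.05 (SE 0.32; edgeR adjusted p = 0.908). Without knockout 5 and 6, Myc was lower in the knockout, with a log2 difference of -0.61 (adjusted p = 0.0144). Of 16 proliferation genes, all tested, 10 were called higher (62.5%, beside 21.4% of all genes) and none lower. Their summed level was 2317 to 2377 CPM in knockout 5 and 6 and 1994 to 2266 CPM in knockout 1 to 4, against 1311 to 1364 CPM in control 1 to 5 and 1930 CPM in control 6. The cyclin gene Ccnd2 was then left out, after its level was seen. The other 15 summed to 1696 to 1744 CPM in knockout 5 and 6 and 861 to 883 CPM in knockout 1 to 4. They summed to 799.9 to 848 CPM in control 1 to 5 and 746 CPM in control 6. Apart from Ccnd2 the highest sums were thus those of knockout 5 and 6, with knockout 1 to 4 a little above the controls. Of the 16 genes, 5 were higher in every knockout library than in every control library. Over all tested genes, 1286 of 12146 were higher in this way, and 23% kept the groups apart in either direction. Mki67, a marker of dividing cells, was at 129 and 141 CPM in knockout 5 and 6 and at 42.4 to 64.5 CPM in knockout 1 to 4, against 39.6 to 54.2 CPM in control libraries. The part of cell division or of the pre-ribosomal RNA content in the levels of Lef1, Tcf7, Znrf3, Myc and Ccnd1 was not tested.

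**Figure D3:**
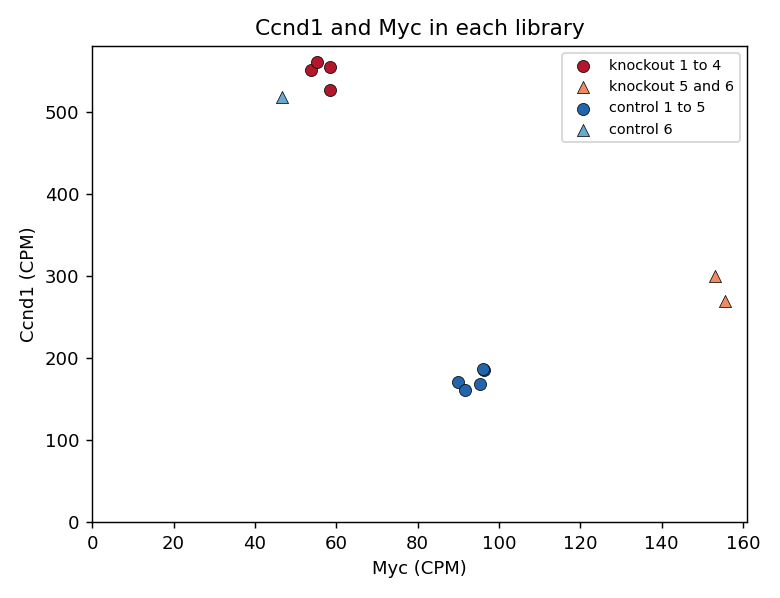
Ccnd1 (vertical axis, CPM) against Myc (horizontal axis, CPM) in each of the 12 libraries. Knockout 1 to 4 and control 6 lie at the upper left, with Ccnd1 at 518 to 560 CPM and Myc at 46.7 to 58.5 CPM, and knockout 5 and 6 lie at the right with Myc at 153 and 155.5 CPM.

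Tnfrsf19, which encodes the TNF receptor family member TROY and marks Wnt-responsive cells in several tissues, had 0, 1, 1, 4, 8 and 3 counts in knockout 1 to 6, against 1, 3, 3, 2, 1 and 1 in control 1 to 6. The groups overlapped. The difference of mean log2 CPM was 0.46 and did not pass the exact two-sided permutation test (p = 0.253), and at these counts a moderate difference was not detectable. The ratio of summed levels was 2.45 with a 95% counting interval of 1.08 to 5.79, which covers counting error only.

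Per length, Ccnd1 came first by its mean, with a mean of 123 CPM per kilobase in the knockout and 62.0 in the control, and Myc second, with 36.4 in the knockout and 35.1 in the control. In the control libraries Nkd1 (0.558 to 1.52), Znrf3 (1.06 to 1.5), Nkd2 (0.397 to 1.66) and Tcf7 (0.466 to 0.585) overlapped in part, Lef1 lay at 0.254 to 0.499, and Axin2, Apcdd1 and Tnfrsf19 stayed at or below 0.181. In the knockout libraries Znrf3 (0.842 to 3.04) led the low genes by its mean, and Nkd1 (0.296 to 0.712) stood below Nkd2 (0.433 to 0.801) with overlapping ranges. The order among the low genes also differed between sets of the same genotype. Lef1 and Tcf7 averaged 1.88 and 1.70 in knockout 5 and 6, above Nkd2 (0.658) and Nkd1 (0.352), but 0.436 and 0.373 in knockout 1 to 4, below Nkd2 (0.653) and Nkd1 (0.599). Control 6 had Nkd1 (0.558) below Nkd2 (1.66), while control 1 to 5 had Nkd1 (1.41) above Nkd2 (0.597).

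**Figure D4:**
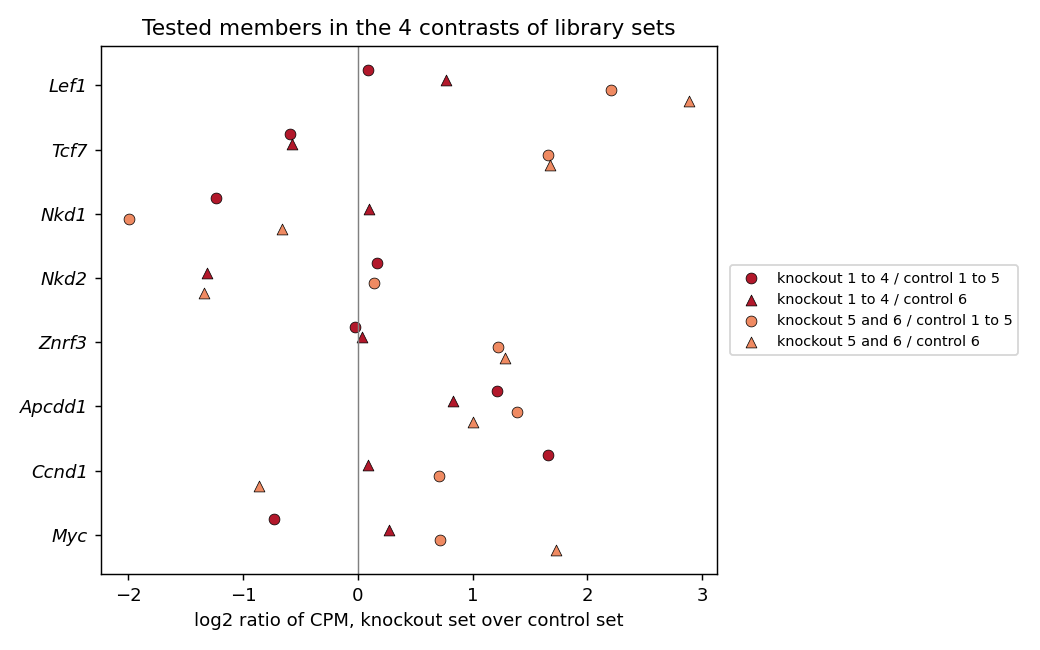
Log2 ratio of CPM (horizontal axis) of each knockout set over each control set for the 8 tested members, from summed counts, with 0 meaning equal levels. Apcdd1 lies right of 0 in all 4 contrasts (ratios 1.77 to 2.61), and so does Lef1, with ratios of 1.06 and 1.70 for knockout 1 to 4 and of 4.61 and 7.39 for knockout 5 and 6, while the other 6 genes have contrasts on both sides of 0.

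Of the core pathway genes, which carry or restrain the signal between the receptor and the nucleus, 38 of 39 were tested. Of these, 6 were higher, 9 lower and 23 not past the test. As both kinds are in the list, its counts and median do not measure the strength of the signal. The called share was 39.5%, beside 43% of all genes, and the median log2 difference was -0.07. Besides Ctnnb1, the 6 genes with the smallest adjusted p were picked for description. Ctnnb1, the gene of beta-catenin itself, was abundant and slightly lower, at 629.6, 634, 620.1, 637, 562 and 569 CPM in knockout 1 to 6, against 696 to 721 CPM in control libraries. The groups did not overlap (log2 difference -0.22, SE 0.08; edgeR adjusted p = 0.0325), and the adjusted p was 0.054 to 0.0655 without any one of knockout 5, knockout 6 and control 1 to 5. Dact1, a Dishevelled-binding protein that dampens Wnt signals, fell to 5.93 ± 0.831 CPM in the knockout, against 15.6 ± 1.63 CPM in the control (SD, n = 6 each), which gave a log2 difference of -1.40 (SE 0.12, adjusted p = 8.22e-06 in edgeR). Every knockout set was at 0.332 to 0.492 of every control set for Dact1. Among the Groucho corepressors, which bind TCF proteins when beta-catenin is absent, Tle4 rose to 22.2 CPM in the knockout, against 9.60 CPM in the control (log2 difference 1.21), and Tle1 fell to 64.5 CPM in the knockout, against 93.5 CPM in the control (log2 difference -0.54). Both differences were smaller against control 6: knockout 1 to 4 were at 2.07 times control 1 to 5 but 1.24 times control 6 for Tle4, and for Tle1 control 6, at 68.7 CPM, lay inside the knockout range of 61.5 to 69.8 CPM.

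Dvl2, one of the Dishevelled adaptors, fell to 40.5 CPM in the knockout, against 58.7 CPM in the control (log2 difference -0.54, SE 0.10), with control 6 at 43.6 CPM inside the knockout range. The other Dishevelled genes, Dvl1 (log2 difference 0.27) and Dvl3 (0.10), did not pass, and neither did the Groucho genes Tle2 (0.18) and Tle3 (-0.07). The casein kinase genes Csnk1g1 and Csnk1g2, whose products phosphorylate LRP receptors, moved apart. Csnk1g1 rose to 75.6 CPM in the knockout, against 50.8 CPM in the control, and Csnk1g2 fell to 100.3 CPM in the knockout, against 138 CPM in the control. Both kept the groups apart in all 12 libraries. Their paralog Csnk1g3 was called higher (log2 difference 0.35) with overlapping groups. The edgeR adjusted p-values of Tle4, Tle1, Dvl2, Csnk1g1 and Csnk1g2 were 0.000125 to 0.00154.

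Of 40 other genes reported as beta-catenin targets in various tissues, 27 were tested, with 11 higher, 5 lower and 11 not past the test. The called share was 59.3%, beside 43% of all genes, and the median log2 difference was 0.48. Many genes of this list also answer to other signals. Msx2, a homeobox gene also induced by BMP, rose to 12 ± 1.54 CPM in the knockout, against 4.16 ± 0.674 CPM in the control (SD, n = 6 each), which gave a log2 difference of 1.53 (SE 0.14, adjusted p = 1.06e-05 in edgeR). Id2, likewise a BMP target, rose to 19.4 CPM in the knockout, against 9.06 CPM in the control (log2 difference 1.09), and Met, the receptor of hepatocyte growth factor, rose to 25.6 CPM in the knockout, against 13.4 CPM in the control (log2 difference 0.93). Each of these 3 genes was at least 1.52 times higher in every knockout set than in every control set.

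The hyaluronan receptor gene Cd44 rose to 1086 ± 199 CPM in the knockout, against 276 ± 205 CPM in the control (SD, n = 6 each; log2 difference 1.97, SE 0.34). The controls were split, with 188 to 197 CPM in control 1 to 5 and 694 CPM in control 6. Plaur, the urokinase receptor gene, rose in the knockout (log2 difference 1.87), with 223 to 254 CPM in knockout 5 and 6 and 75.6 to 91.8 CPM in knockout 1 to 4, against 31.4 to 37 CPM in control 1 to 5 and 48.4 CPM in control 6. Its ratio ran from 1.68 (knockout 1 to 4 over control 6) to 6.91 (knockout 5 and 6 over control 1 to 5). The ephrin receptor gene Ephb2 fell to 21.3 CPM in the knockout, against 32.3 CPM in the control (log2 difference -0.60). The edgeR adjusted p-values of Id2, Met, Cd44, Plaur and Ephb2 were 2.65e-05 to 0.000672. Some genes of these lists were hardly read: Sp5 had no count in any library, Notum, Dkk1 and Ascl2 had at most 1, Wif1 at most 3, and Lgr5 and the Znrf3 paralog Rnf43 at most 5. A count of 0 allows a level of up to 0.31 to 0.475 CPM (3 counts, counting error only) in a knockout library, against 0.191 to 0.245 CPM in a control library.

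**Figure D5:**
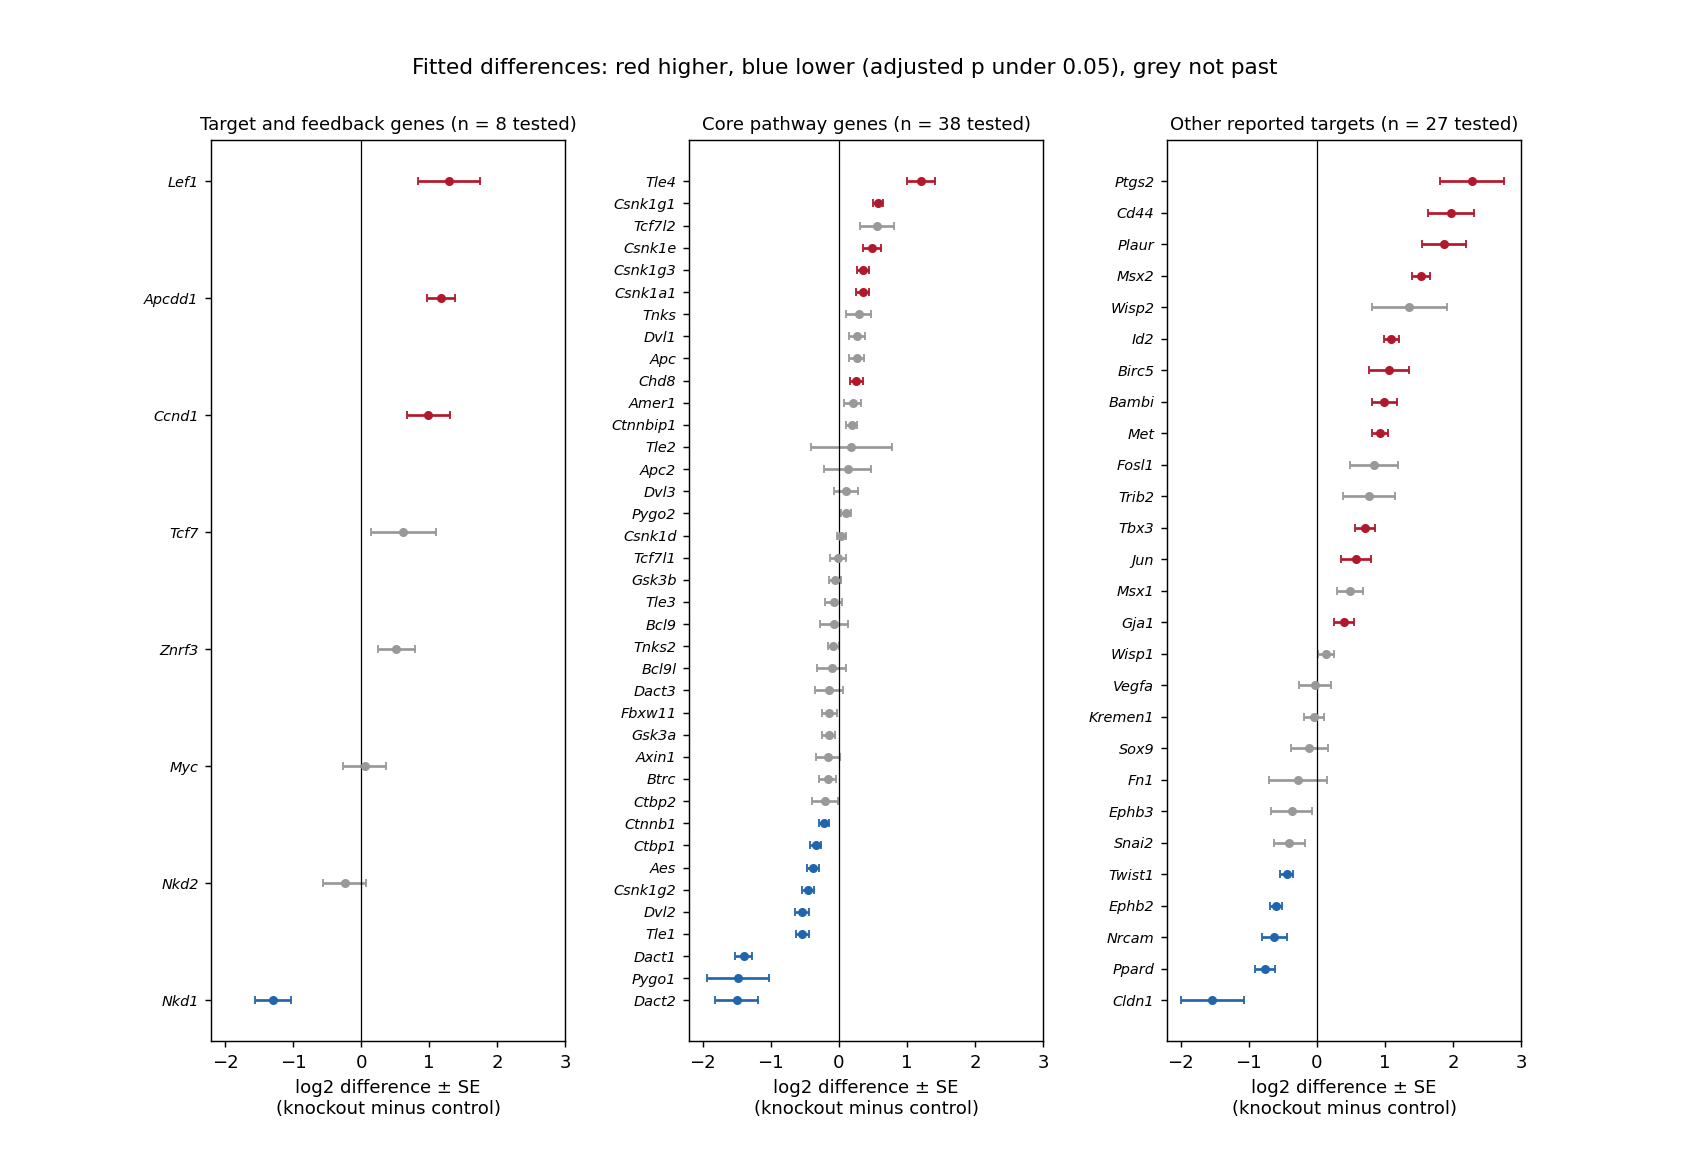
Log2 difference of knockout minus control (horizontal axis) with its SE for the tested genes of 3 lists, red where higher and blue where lower at an adjusted p under 0.05 and grey otherwise. The 8 target and feedback genes span -1.30 (Nkd1) to 1.29 (Lef1), the 38 core genes lie mostly near 0 with a median of -0.07, and the 27 other targets have a median of 0.48.

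Genes of similar pattern over the 12 libraries were sought among the tested genes, leaving out symbols of the Gm-number and Rik type. Of these, the genes whose centred log2 CPM lay nearest to that of Nkd1, the member with the largest difference, were Edem1, Derl1 and Isoc1. Their root mean square distances were 0.162, 0.179 and 0.181 on the log2 scale, where the median gene was at 0.808. Edem1, which sorts misfolded glycoproteins for degradation, averaged 136.5 CPM in the knockout and 304.1 CPM in the control. For Axin2 the nearest genes were Dleu2, Them4 and Prr32, at 0.323 to 0.340, but its counts of 1 to 11 leave much of that distance to counting error.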

How the data were processed

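The authors deposited expected counts, which may have decimals, for each gene symbol in 12 libraries. The submitters' processing notes list RSEM 1.2.15 and Bowtie2 2.1.0 and also name a human build although the rows are mouse symbols. Which annotation and strand option RSEM was run with is not given in the sources used here, so overlapping or antisense genes are uncertain. Libraries were oligo-dT selected and strand-specific, per the labels' protocols.

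Counts were rounded (2.67% to 3.48% of values had decimals), filtered with filterByExpr (minimum count 10, minimum total 15), scaled by trimmed mean of M-values and tested with edgeR 4.0.16 in R 4.3.3 on all 12 libraries. Log2 CPM used a prior count of 2. The script was tested on simulated data. DESeq2 1.42.0 and limma-voom (limma 3.58.1) were among the alternatives. Axin2 and Tnfrsf19, which were not tested in edgeR, were compared by exact permutation. Intervals and floors cover counting error only.

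The members, lists and alternatives were chosen with earlier results of these data known. Named genes were the members, Tnfrsf1a, Rn45s, Ctnnb1, Mki67, Pcna, Ccnd2, the 6 genes with the smallest adjusted p in each of the core and other target lists, and the 3 genes nearest in pattern to Axin2 and Nkd1. Tcf7l1, Tcf7l2, Dvl1, Dvl3, Tle2, Tle3, Csnk1g3, Lck, the undetected targets and the single cell type markers were named after their values were seen. Replicate numbers are shared between the groups. Whether same-numbered libraries were paired could not be decided from their deviations.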

Additional observations from a re-analysis of the deposited data

Results flagged for a closer look

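In groups of 6, a library was singled out where its gap to the nearest other library divided by the group's range exceeded Dixon's 95% critical value, which chance gives in about 1 of 20 groups. Among the named genes, control 6 accounted for most such values. Control 6 was lowest for Axin2 (0.0636 CPM), Nkd1 (2.54), Myc (46.7), Tnfrsf1a (54.9), Tle1 (68.7), Dvl2 (43.6) and Pcna (50.7 CPM). It was highest for Nkd2 (6.68 CPM), Ccnd1 (518), Tle4 (14.4), Cd44 (694), Plaur (48.4) and Ccnd2 (1184 CPM). Outside control 6, knockout 6 was highest for Axin2 (0.724 CPM), control 3 was highest for Znrf3 (11.8 CPM) and knockout 3 was lowest for Csnk1g1 (66.1 CPM). The part of library preparation, culture or animal in these values was not tested.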

How the results depend on the processing

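The counts of calls were checked under other scalings, tests, filters and sets of libraries. Apcdd1 and Nkd1 kept their calls under all of these except the 4 summed sets. When the libraries were summed into 2 knockout sets (1 to 4, 5 and 6) and 2 control sets (1 to 5, 6 alone) and tested 2 against 2, no gene passed (0 higher and 0 lower of 13132 in edgeR, and 1047 at an unadjusted p under 0.05), so 0 members, core genes or other targets were called (0, 2 and 6 at an unadjusted p under 0.05). Without knockout 5, knockout 6 and control 6, the counts were 4319 higher and 4508 lower over all genes (71.3% called), 17 higher and 14 lower of the core genes, 17 higher and 8 lower of the other targets, and 2 higher and 2 lower of the members. Without knockout 5 and 6 alone, 2 members were higher and 2 lower and 7 core genes higher and 14 lower, where 24.5% of all genes were higher and 27.5% lower. The cause of these shifts was not tested.

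Leaving out 1 library at a time gave 1 to 3 members higher and 1 lower, 2148 to 3092 genes higher and 2270 to 2977 lower, 5 to 8 core genes higher and 8 to 9 lower, and 9 to 14 other targets higher and 5 lower. Directions that turned, none past the test in the full set of libraries, were as follows. Without knockout 5 and 6, Tcf7 was at -0.57, Znrf3 at -0.038, Myc at -0.61 and Pcna at -0.014. Without knockout 5, knockout 6 and control 6, Tcf7 was at -0.58, Znrf3 at -0.031, Myc at -0.73, Pcna at -0.078 and Nkd2 at 0.17. Without control 6, Nkd2 was at 0.15 and Myc at -0.072. Leaving out 1 library in turn took Nkd2 over -0.38 to 0.15 and Myc over -0.18 to 0.17. Myc was at -0.075 in limma-voom, -0.11 with the replicate block, -0.18 without knockout 5 and -0.17 without knockout 6. Tnfrsf19 reached an exact permutation p of 0.0476 without knockout 1.

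Same-numbered knockout and control libraries had deviations correlated at -0.364 to 0.184, and none had its own number as best partner. Control 6 was the best partner of each of knockout 1 to 4. The check thus follows the libraries that stood apart and cannot decide whether same-numbered libraries were paired. With the replicate block, 1867 genes were higher and 2107 lower, 2 members were higher and 1 lower, and the calls of Lef1 (adjusted p = 0.205), Ctnnb1 (0.127), Mki67 (0.0843) and Ccnd2 (0.0966) were lost. With no filter on low counts Ctnnb1 was at an adjusted p of 0.0534. Depth limits Axin2 and Tnfrsf19 most, at no more than 11 counts per library.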

Other observations

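The ratio of Ccnd1 to Myc within a library, which does not depend on library scaling, was 9.02 to 10.2 in knockout 1 to 4 and 1.73 to 1.96 in knockout 5 and 6, against 1.76 to 1.94 in control 1 to 5 and 11.1 in control 6. Each genotype therefore held libraries at both levels. Ccnd2, a second D-type cyclin gene, was at 1111 to 1401 CPM in knockout 1 to 4 and at 620.4 and 632 CPM in knockout 5 and 6, against 505 to 516 CPM in control 1 to 5 and 1184 CPM in control 6. Pcna, a replication gene, was at 60.8 to 70.9 CPM in knockout 1 to 4 and at 178 and 186 CPM in knockout 5 and 6, against 50.7 to 70.7 CPM in control libraries. These patterns were chosen after the values were seen.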
